A study of Rattus norvegicus with 2 samples.

Results

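The genes described here mark B cells, the germinal centers in which activated B cells divide and mutate their receptors, and the plasma cells that secrete antibody. The set was given by gene name and held 33 genes, and immunoglobulin probes were left out of it. Probes carrying the name were found for 32 of the 33, and all 32 were well above background on both arrays, among 21096 genes that were so on at least 1 array. Gene expression was measured in cervical lymph nodes of male Sprague-Dawley rats aged 10 to 12 weeks, on 1 array of control rats (C) and 1 array of rats under restraint stress (RS). The array labels state no duration of restraint, and in the study's text the microarray comparison is that of its RS30 group with C. How many rats contributed RNA to each array, and whether RNA was pooled, was not given in the sources used here. With 1 array in each group, no difference below has a replicate check, and no test was run.

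B cells sense antigen through a membrane immunoglobulin bound to Cd79a and Cd79b, which pass the signal to the kinases Lyn, Blk, Syk and Btk and the adaptor Blnk. Pax5 and Ebf1 hold the B cell identity, Bcl6 directs the germinal center reaction, and Prdm1 together with Irf4 directs the change into a plasma cell. Lymph node follicles are packed with B cells, and survival of these cells and of plasma cells depends on the cytokines BAFF and APRIL, bound by the receptors Tnfrsf13b, Tnfrsf13c and Tnfrsf17.

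Each gene was read by labeled RNA bound to probes of 60 bases, whose sequences are part of the deposited scanner output. Probes of 6 genes are shown as examples. For Fcer2, Vpreb3, Tnfrsf13b and Ikzf3 the representative probe differed between the arrays by more than the spot error. Ms4a1 and Pax5 are defining B cell genes. For Fcer2 and Ikzf3 the second probe is shown, which does not represent the gene. For the others it is the probe that represents the gene. Sequences are given 5′ to 3′ in lower case.
Fcer2: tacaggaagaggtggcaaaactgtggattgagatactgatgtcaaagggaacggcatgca
Vpreb3: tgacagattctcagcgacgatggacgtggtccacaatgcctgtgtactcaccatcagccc
Tnfrsf13b: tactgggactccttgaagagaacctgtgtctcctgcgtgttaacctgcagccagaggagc
Ikzf3: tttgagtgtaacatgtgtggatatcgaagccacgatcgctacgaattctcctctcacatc
Ms4a1: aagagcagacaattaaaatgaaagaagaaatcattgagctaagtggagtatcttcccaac
Pax5: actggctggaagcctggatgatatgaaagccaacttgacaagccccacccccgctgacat
The file header names the rat build rn4, and the positions that follow are those of the files. The Fcer2 probe spans chr12:2450343-2467898 on the + strand. That span of 17556 bases is longer than the probe, so the probe joins sequence from both sides of an intron, as did 5 of the 46 probes of the set. The Vpreb3 probe lies at chr20:13116499-13116558 on the - strand. The Tnfrsf13b probe lies at chr10:47286687-47286746 on the + strand, and the Ikzf3 probe at chr10:87275837-87275896 on the - strand. The Ms4a1 probe lies at chr1:213764136-213764195 and the Pax5 probe at chr5:61089642-61089701, both on the - strand. Exon and UTR annotation of this build was not used here.

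None of the 32 genes was 2-fold higher or lower on the RS array, while 7.74% of all 21096 genes were. Past 1.5-fold lay 3 of the 32 genes, or 9.38%, against 16.4% of all genes. These were Prdm1 and Vpreb3, which were higher on the RS array (2 genes or 6.25%, against 7.97% of all genes), and Fcer2, which was lower (1 gene or 3.12%, against 8.46%). The log2 differences (RS minus C, after each array was set to its 75th percentile) ran from -0.62 to 0.72 with a median of 0.02, and the median over all genes was 0.02 as well. Of the 32 genes, 16 lay below 0, against 47.9% of all genes, and 16 lay above 0, against 52.1% of all genes.

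A gene with little signal varies more on an array, and 19 of the 32 genes had probes in the brightest quartile of all genes, 9 in the next, 4 in the one after it and 0 in the dimmest. Against that brightest quartile, of which 6.84% passed 1.5-fold (3.36% higher and 3.49% lower), the 9.38% of the B cell genes was no longer the smaller share. Past 2-fold lay 3.77% of that quartile (1.52% higher and 2.26% lower), and 42.0% of it lay below 0 and 58.0% above. The middle 50% of the B cell genes spanned 0.36 log2 units. The same span was 0.41 over all genes, 0.37 over the genes above background on both arrays and 0.26 over the brightest quartile. The median size of a difference, whatever its sign, was 0.20 in the set, 0.21 over all genes, 0.19 over the genes above background on both arrays and 0.13 over the brightest quartile. The SD, which a few large differences can set, was 0.33 in the set, 0.65 over all genes and 0.49 over the brightest quartile. By the middle 50% and the median size the B cell genes were spread more widely than genes of high signal, by the SD less widely, and none of these differences was tested. These comparisons set all 32 genes against the brightest quartile, though only 19 of them lay in it. The 19 were not compared alone, so the sets are unlike in signal.

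**Figure D1:**
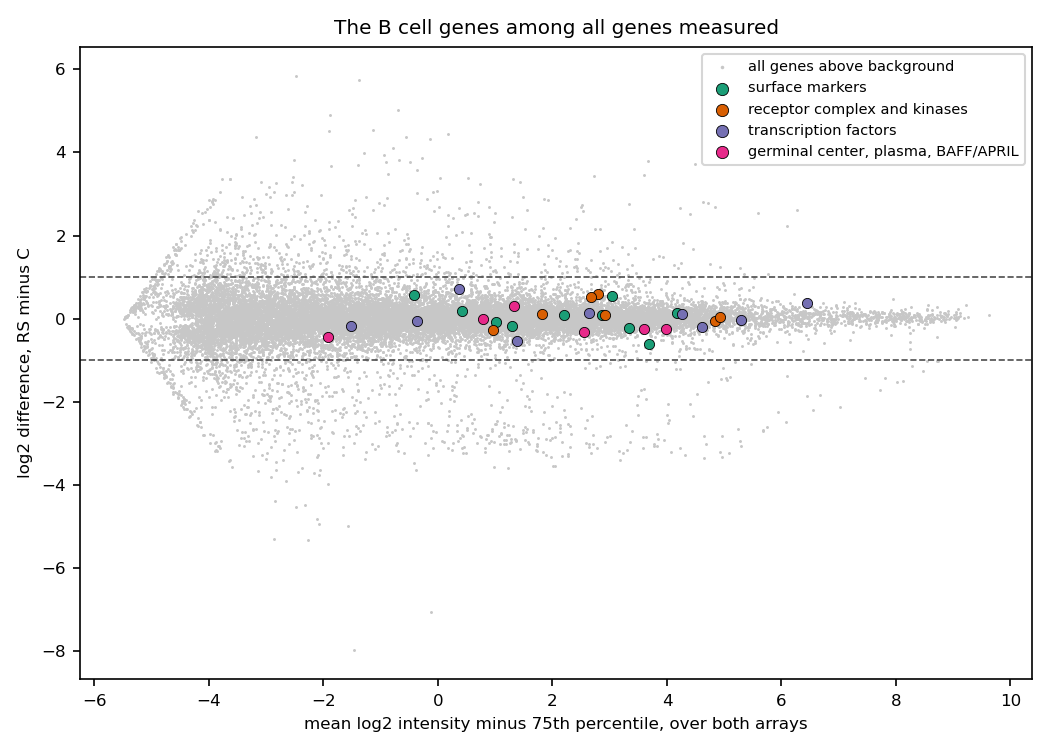
Log2 difference (RS minus C, vertical axis) against the mean log2 intensity of both arrays minus the 75th percentile (horizontal axis) for 21096 genes in gray, with the 32 B cell, germinal center and plasma genes colored by role. Dashed lines mark 2-fold. All 32 colored points lie between the lines, from -0.62 to 0.72.

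The spot error, which comes from the scanner software and covers the measurement of the spots alone, was 0.06 to 0.22 log2 units for these genes. Differences beyond 1.96 times that error were found for 12 of the 32. The 7 higher on the RS array (21.9%, against 11.0% of all genes) were Cd24, Cd38, Fcrla, Vpreb3, Syk, Pou2af1 and Prdm1. The 5 lower (15.6%, against 10.2%) were Fcer2, Cd22, Ikzf3, Tnfrsf13b and Sdc1. Among genes of the brightest quartile the shares were 10.1% higher and 7.26% lower. The error shrinks with the number of spots. Fcrla, Pou2af1, Cd22 and Sdc1 were the 4 genes of the set spotted 9 or 10 times, with errors of 0.06 to 0.07. The median error of the set was 0.20, and at that error none of these 4 would have been counted. The shares thus depend in part on how many spots a probe has. Neither side was made up of a single role, since each held surface proteins and at least 1 regulator of transcription. The error leaves out all variation between animals.

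**Figure D2:**
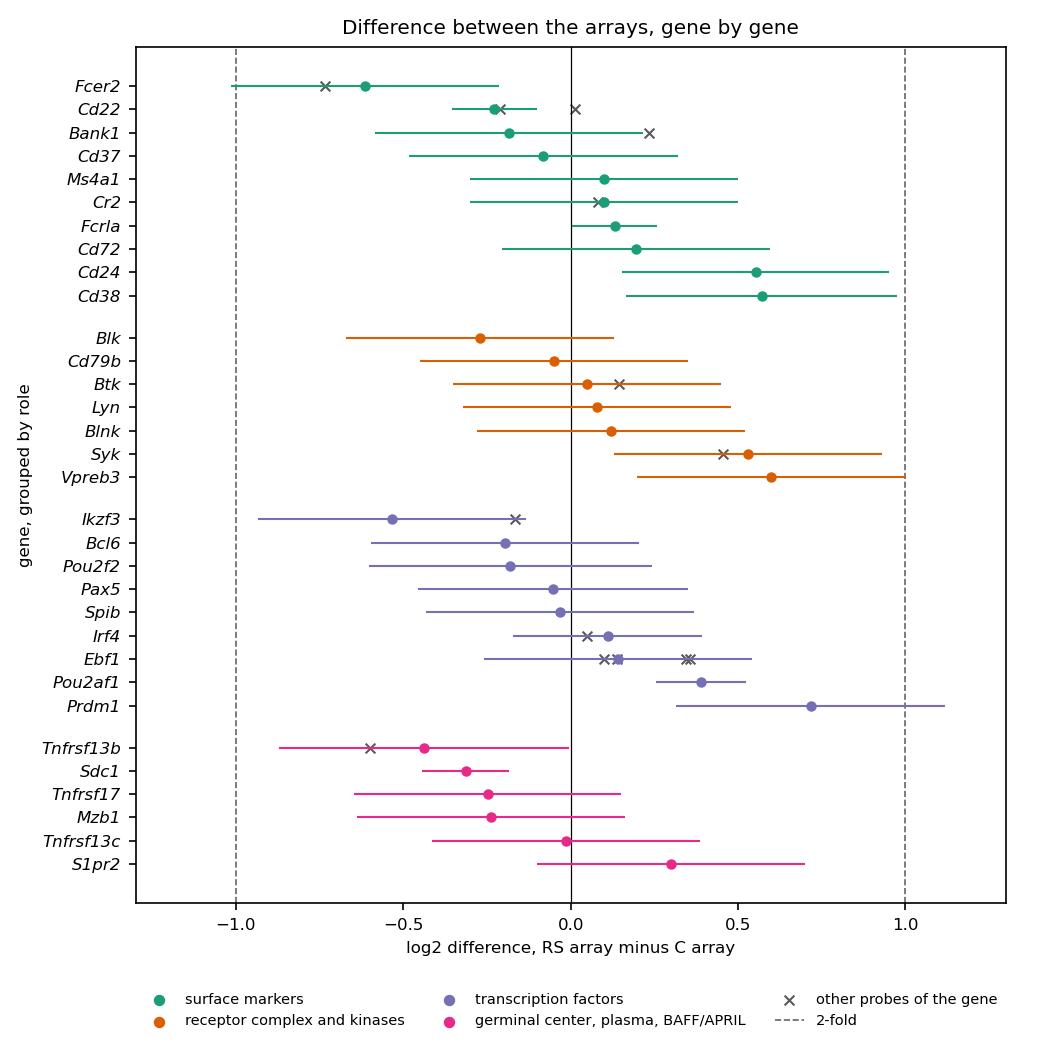
Log2 difference between the arrays (RS minus C) for the 32 genes, in 4 roles and sorted within each. Points are the probe that represents the gene, bars are 1.96 times the spot error, crosses are other probes of the gene and dashed lines are 2-fold. Prdm1 (0.72) and Fcer2 (-0.62) lie farthest to the right and to the left, and no point reaches a dashed line.

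Intensities are given as deposited, before scaling. The 75th percentile lay at 189 (C) and 176 (RS), so the scaling adds 0.10 to each log2 difference of RS minus C. Probes bind with unlike efficiency, so an intensity can be compared between the arrays but not between genes. In a whole node, fewer cells of a type and less RNA in each cell cannot be told apart.

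The surface proteins were the first of 4 roles, with 10 genes, a median log2 difference of 0.10, and 6 genes above 0. Of all genes 52.1% lay above 0. Ms4a1, which encodes the B cell surface protein CD20, read 837 on both arrays, a log2 difference of 0.10 (spot error 0.20). Cr2, the complement receptor CD21 of B cells and follicular dendritic cells, read 1333 on both arrays and also had a log2 difference of 0.10. Its second probe gave 0.08. Both genes were therefore equal in raw signal, and their small differences are the scaling itself.

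Fcer2, the low-affinity receptor for IgE known as CD23, had intensities of 3005 (C) and 1832 (RS), which was 1.53-fold lower, at a log2 difference of -0.62 (spot error 0.20). The second probe, the one shown above that crosses an intron, went from 226 to 127, a log2 difference of -0.73. Both probes of Fcer2 read lower on the RS array, and this was the largest decrease in the set. Cd22, a lectin that restrains receptor signals, was spotted 10 times on each array. Its spots read 1899 to 2274 on the C array and 1514 to 1778 on the RS array, so they did not overlap before scaling, and after it the ranges met at their edges. The mean intensities were 2074 and 1653, a log2 difference of -0.23 (spot error 0.06). The other Cd22 probes gave 0.01 and -0.21, so that 1 of the 3 showed no lower signal after scaling.

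Cd24, a small glycolipid-anchored surface protein, had intensities of 1290 (C) and 1766 (RS), a log2 difference of 0.55. Cd38, an enzyme on the cell surface that breaks down NAD, had 116 and 160, a log2 difference of 0.57 (spot error 0.21). These were the largest increases among the surface proteins, and each rests on 1 probe with 1 spot. Fcrla, a relative of the Fc receptors that stays inside B cells, read 3253 and 3329 over 10 spots, a log2 difference of 0.13 (spot error 0.06). Its spots overlapped between the arrays before scaling, at 3045 to 3428 and 3217 to 3472, and no longer did after it. Cd72, a lectin that restrains receptor signals, had intensities of 235 and 252 (log2 difference 0.20). Cd37, a tetraspanin of mature B cells, had 390.0 and 344 (log2 difference -0.08). Neither exceeded the spot error. Bank1, a scaffold for receptor signaling, gave opposite signs by probe, with a log2 difference of -0.18 (496 and 408) for the representative probe and 0.23 (347 and 381) for the other.

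The receptor complex and its kinases comprised 8 genes, of which 7 were found by name. Their median was 0.08, with 5 of the 7 above 0, against 52.1% of all genes. Without normalization the median of this role was -0.02. That setting lowers every gene by the same 0.10 and gives a median of -0.08 over all genes. Cd79b, the signaling chain Igβ, had intensities of 5532 (C) and 4993 (RS), a log2 difference of -0.05. No probe bears the name Cd79a, the partner chain Igα. A single probe is described in the file as Cd79a under another name, and it read 622 and 588, a log2 difference of 0.02 (spot error 0.20). It lies outside the rule and was counted nowhere. Both chains of the receptor's signaling unit thus differed by less than the spot error.

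Syk, the kinase recruited to the phosphorylated receptor, had intensities of 1003 (C) and 1351 (RS), a log2 difference of 0.53 (spot error 0.20). Its second probe read 106 and 136, a log2 difference of 0.46. Syk was thus higher on the RS array by both probes, short of 1.5-fold. Vpreb3, a protein that associates with immunoglobulin chains inside B cells, had 1065 and 1508, which was 1.52-fold higher at a log2 difference of 0.60. It fell short of 1.5-fold under 4 of the 12 alternative settings, at 0.50 to 0.58. Blk, a Src-family kinase of B cells, had 406 and 314, a log2 difference of -0.27. The remaining signaling genes were close to 0. Lyn, the Src-family kinase that starts the signal, had 1387 and 1368 (log2 difference 0.08). Btk, the kinase that activates phospholipase C, had 5656 and 5462 (log2 difference 0.05, and 0.15 by its second probe). Blnk, the adaptor that brings Btk to its substrate, had 639 and 649 (log2 difference 0.12). Without normalization Lyn and Btk were at -0.02 and -0.05, still above that median of all genes.

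**Figure D3:**
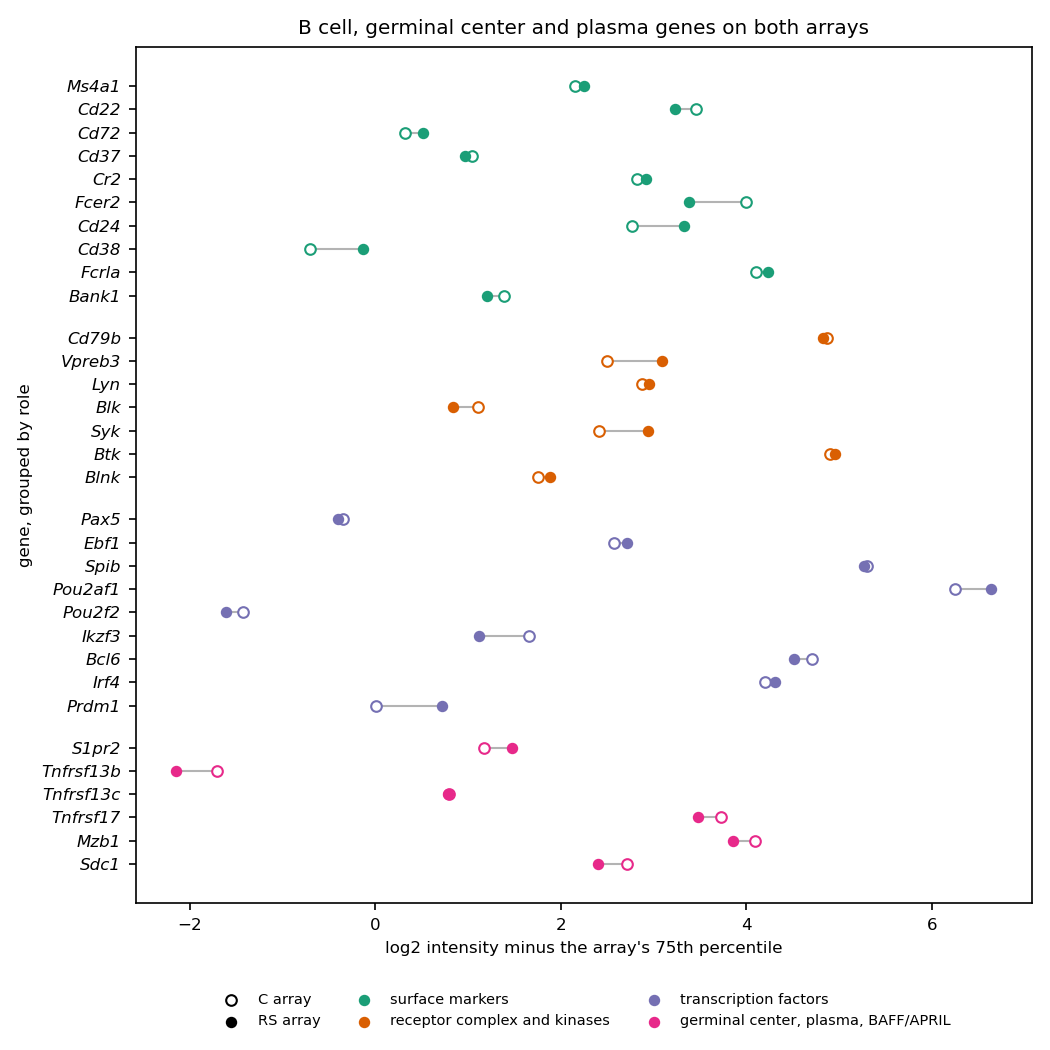
Log2 intensity relative to the 75th percentile of each array (horizontal axis) for the 32 genes on the C array (open circles) and on the RS array (filled circles), colored by role. A value of 0 is the 75th percentile of all probes. The 2 circles of a gene lie at most 0.72 log2 units apart, and positions of different genes along the axis are not comparable.

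The transcription factors comprised 9 genes with a median of -0.03 and 4 above 0, against 52.1% of all genes. Pax5 had intensities of 149 (C) and 134 (RS), a log2 difference of -0.05 (spot error 0.21). Ebf1 was read by 5 probes, all of them higher on the RS array after scaling, with log2 differences of 0.10 to 0.36. Its representative probe had 1121 and 1155 (log2 difference 0.14). The regulators of B cell identity, Pax5 and Ebf1, both differed by less than the spot error on the representative probe. Spib, an Ets-family factor of B cells and plasmacytoid dendritic cells, had 7447 and 6803, a log2 difference of -0.03. Pou2f2, the octamer factor Oct-2, had 70.0 and 57.7, a log2 difference of -0.18 (spot error 0.22). Pou2af1, the coactivator of the octamer factors, was spotted 9 times and read 14374 and 17587. Its log2 difference was 0.39 (spot error 0.07), with spots of 13881 to 15204 on the C array and 16947 to 18333 on the RS array. Every Pou2af1 spot thus read higher on the RS array, while the octamer factor it binds read lower, within its error.

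Prdm1, the repressor Blimp-1 that drives plasma cell differentiation, had intensities of 190 (C) and 291 (RS). That was 1.64-fold higher, at a log2 difference of 0.72 (spot error 0.20), the largest increase in the set, read by 1 probe with 1 spot. Bcl6, the repressor that Prdm1 opposes, had 4942 and 4028, a log2 difference of -0.20, within the error. Irf4, which acts at both the germinal center and the plasma cell stage, had 3473 and 3503, a log2 difference of 0.11 (0.05 by its second probe). Of these 3 regulators Prdm1 alone was past 1.5-fold, and at 0.58 under the normexp background correction it lay just short of it. T cells and macrophages also express Prdm1, and which cells gave the signal was not tested. Ikzf3, the lymphocyte factor Aiolos, had 594 and 383, a log2 difference of -0.53 (spot error 0.20). The second Ikzf3 probe, the one shown above, read 159 and 132, a log2 difference of -0.17, within its error. Both probes of Ikzf3 read lower on the RS array, with unlike sizes.

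The last role joined germinal center, plasma cell and BAFF and APRIL receptor genes. It held 6 genes with a median of -0.24, and 5 of them lay below 0, against 47.9% of all genes. Its median stayed below 0 under all 12 alternative settings, between -0.34 and -0.20. Several of these settings leave these genes unchanged or move all genes by the same small constant, and could not turn its sign. Sdc1, the plasma cell surface proteoglycan CD138, had intensities of 1241 over 10 spots (C) and 933 over 9 spots (RS). Its log2 difference was -0.31 (spot error 0.07), and its spots read 1137 to 1409 and 889 to 989, without overlap. Mzb1, a chaperone for antibody assembly in the endoplasmic reticulum, had 3233 and 2561, a log2 difference of -0.24 (spot error 0.20). Tnfrsf17, the receptor BCMA of plasma cells, had 2494 and 1961, a log2 difference of -0.25. These 3 genes were thus lower by similar amounts, and of them Sdc1 alone lay beyond 1.96 times its error.

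Tnfrsf13b, the receptor TACI that binds both BAFF and APRIL, had intensities of 57.8 (C) and 39.9 (RS), a log2 difference of -0.44 (spot error 0.22). Its second probe read 49.1 and 30.3, a log2 difference of -0.60. Both were low signals, and both were lower on the RS array. Tnfrsf13c, the receptor for BAFF alone, had 327 and 303, a log2 difference of -0.01 that became 0.01 when arrays were set to the median. S1pr2, the receptor that keeps germinal center B cells inside the follicle, had 426 and 490.2, a log2 difference of 0.30 (spot error 0.20). It was the 1 gene of this role above 0, within 1.96 times its error.

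The ligands bear on these receptors and are given outside the rule for named genes. Tnfsf13b, which encodes BAFF, had intensities of 81.2 (C) and 56.5 (RS), a log2 difference of -0.43. Tnfsf13, which encodes APRIL, had 523 and 412, a log2 difference of -0.25.

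Of the 10 genes with several probes, the probes of 8 shared a sign after scaling, and those of Bank1 and Cd22 did not. Before scaling the probes of Btk, Irf4 and Cr2 went in opposite directions, and every Cd22 probe read lower on the RS array. The probes of a gene lay a median of 0.14 log2 units apart and at most 0.42 apart. A property of the probes that the choice of genes did not use was a run in which A and G alternate over at least 6 bases (AGAGAG or GAGAGA). Such a run was in 0 of the 32 representative probes and in 1 of the 46 probes, the Cd22 probe that gave -0.21. It was in 4.80% of the representative probes of all genes. The median GC content was 45.0% in the 32 probes and 43.3% in those of all genes.

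Other genes of the B cell and plasma cell pathways were taken from 9 lists of 122 genes, of which 113 were measured and outside the set. Past 2-fold lay 6 of the 113, or 5.31%, against 7.74% of all genes. On the RS array 4 were higher (3.46% of all genes) and 2 lower (4.28%). The median over the 113 was 0.00. These 6 genes belonged to the lists of activation markers, homing receptors and niche ligands.

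Among activation markers, 10 of 11 were measured, with 2 higher, 0 lower and a median of 0.29, the highest of the 9 lists. Cd69, an early activation protein that holds lymphocytes in the node, had intensities of 242 (C) and 638 (RS), 2.83-fold higher (spot error 0.20). Cd83, a protein of activated B cells and dendritic cells, had 7099 and 13988, 2.11-fold higher at 1.08. Fas, a death receptor of activated and germinal center B cells, was the lowest of the list at 87.3 and 74.5 (log2 difference -0.13). Its other probe gave -0.51. These proteins are also made by T cells and dendritic cells, and the source of the signal was not tested.

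Among 10 homing receptors 1 was higher, with a list median of -0.13. Cxcr4, the chemokine receptor that places B cells in the dark zone of the germinal center, had intensities of 604 (C) and 1690 (RS), which was 2.99-fold higher at a log2 difference of 1.58. S1pr4, a lymphocyte receptor for sphingosine 1-phosphate, had 352 and 176, a log2 difference of -0.90. In the germinal center program 15 of 17 genes were measured, with a median of 0.00 and 0 past 2-fold. Foxo1, a forkhead transcription factor of dark zone B cells, was highest of the program at 467 and 606 (log2 difference 0.48). Lmo2, a germinal center transcription cofactor, was lowest of the program at 560.1 and 358 (log2 difference -0.55).

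Among niche ligands 10 of 11 were measured, with 1 higher, 2 lower and a median of -0.22. Il6, which supports plasma cells, had intensities of 9.99 (C) and 98.6 (RS), 10.6-fold higher at a log2 difference of 3.40 (spot error 0.35). Il21, the T cell cytokine that drives germinal center B cells, had 107 and 14.4, 6.95-fold lower at -2.80. Il4, another T cell cytokine that acts on B cells, had 19.7 on the C array and was not well above background on the RS array, where it read 4.91. Its bound was 2.16-fold lower, a log2 difference of -1.11 (spot error 0.57), which lay within 1.96 times that error. All 3 cytokines were read by 1 probe each at low signal.

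The other lists held no gene past 2-fold. Receptor signaling outside the set, with all 21 genes measured, lay between -0.28 (Cd40, the receptor for T cell help, 2303 and 1767) and 0.35 (Grb2, a signaling adaptor, 3587 and 4267), around a median of 0.10. The other Grb2 probe gave 0.02. Receptor inhibitors, with 10 of 11, had a median of 0.07 and a wider range. Fcgr2b, the inhibitory Fc receptor, had intensities of 2202 (C) and 3840.1 (RS) (log2 difference 0.90). Cd5, an inhibitory receptor that T cells also carry, had 471 and 225 (log2 difference -0.97). Early B lineage regulators, with 9 of 12, had a median of -0.13. Il7r, the receptor for a growth factor of early B and T cells, had 1547 and 2834 (log2 difference 0.97). Igll1, a surrogate light chain gene, had 2348 and 1097 and lay just short of 2-fold lower. Rag1, Rag2 and Vpreb1, which early B cells use to assemble their receptor, did not rise well above background on either of the arrays.

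The plasma cell secretory program, with all 17 genes measured, had a median of -0.08. Ell2, an elongation factor for secretory antibody transcripts, had intensities of 1450 (C) and 2175 (RS) (log2 difference 0.68), and Slamf7, a surface protein of plasma cells, had 331 and 211 (log2 difference -0.55). The secretory list was thus spread on both sides of 0, with 8 genes above and 9 below. Class II antigen presentation, with 11 of 12 genes measured, had a median of -0.10. Below 0 lay 9 of the 11, against 47.9% of all genes. Of these only Ciita and Ctss (5033 and 2890, log2 difference -0.70) lay beyond 1.96 times the spot error. The rest lay between -0.22 and -0.01. Ciita, the master regulator of class II genes, had 2406 and 1286 (log2 difference -0.81) by its representative probe and a log2 difference of 0.03 by the other. RT1-Da, a class II chain, had 14386 and 15130 (log2 difference 0.17).

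**Figure D4:**
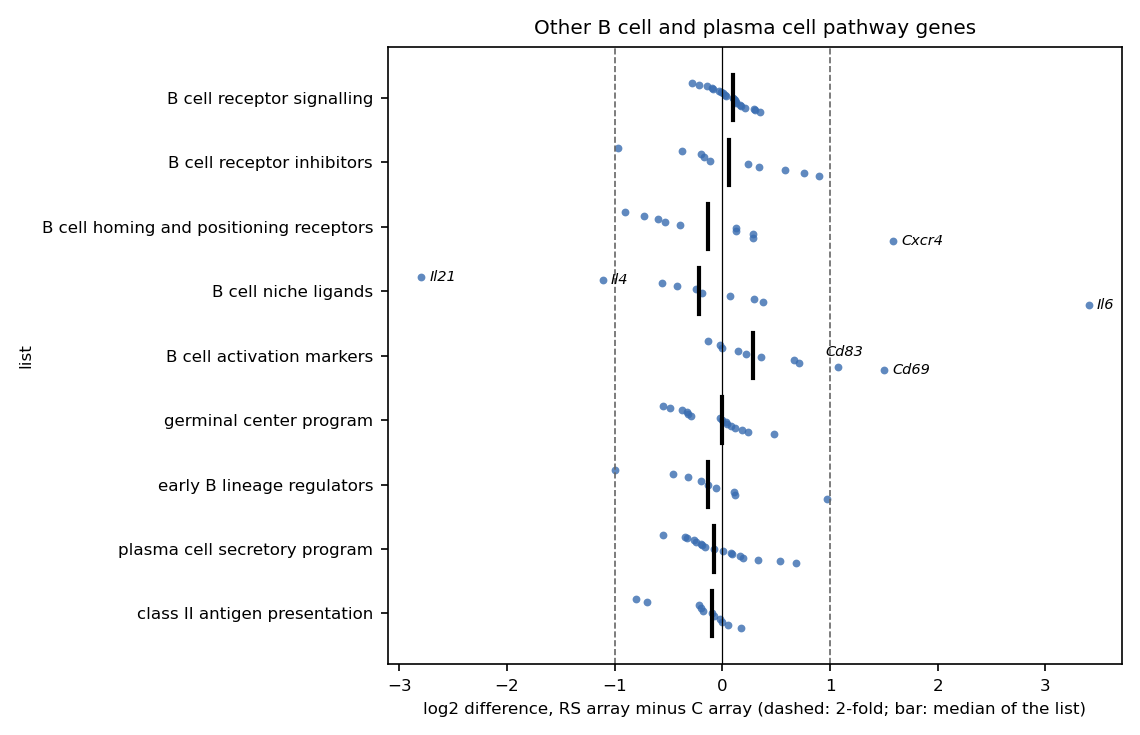
Log2 difference between the arrays (RS minus C) of 113 other genes of the B cell and plasma cell pathways, 1 point per gene in 9 lists, with a bar at the median of each list and dashed lines at 2-fold. The 6 genes past 2-fold are named (Il4 is drawn at its bound), and the medians lie between -0.22 and 0.29.

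The tissue was checked against markers of 13 cell types. The defining B cell genes were present, with 6 of 7 measured, summed intensities of 16331 (C) and 15500.1 (RS), and a median log2 difference of 0.02. The 5 plasma cell markers, all members of the set, summed to 10630.2 and 9249 with a median of -0.24. Of them 3 lay below 0 and 2 above, Prdm1 at 0.72 and Irf4 at 0.11. Of the 10 T cell markers 8 lay below 0, against 47.9% of all genes. The T cell markers had a median of -0.16 and sums of 33772 and 27578. The brightest were Cd3g (13692 and 11604, log2 difference -0.14) and Cd3d (13198 and 11126, log2 difference -0.15). Bcl11b was past 2-fold at -1.14, and its other probe gave -0.74. Medians were -0.27 for 5 natural killer cell genes, 0.01 for 10 macrophage genes and 0.43 for 3 platelet genes. The platelet genes went both ways, with Pf4 at 0.94, Gp1bb at 0.43 (21.3 and 26.7) and Gp9 at -0.60. Medians were 0.18 for 9 endothelial genes and 0.30 for 8 stromal and follicular dendritic cell genes. Of these stromal genes 3 were past 2-fold higher, namely Pdpn (1.16), Col1a1 (1.24) and Col3a1 (1.33), while Ccl19 was at -0.56 and Clu at 0.13. The other Pdpn probe gave 0.55, short of 2-fold.

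The marker lists with the largest medians were those of blood cells and fat. All 7 of 8 erythrocyte genes that were measured were past 2-fold, with a median of 2.60 and sums of 10236 (C) and 57588 (RS), the brightest of them the globins Hba1 (5953 and 33805) and Hbb-b1 (3747 and 20525). Of 7 neutrophil genes 3 were measured, with a median of 3.78 and sums of 74.2 and 769, and S100a8 and S100a9 were past 2-fold at 3.99 and 3.78. The third gene, Csf3r, read 18.6 and 18.8 (log2 difference 0.11). Mpo, Elane, Ngp and Camp were not above background. Of 9 fat cell genes 8 were measured and 7 were past 2-fold, with a median of 2.19 and sums of 9718 and 22921. The brightest were Cfd (5251 and 10400.0, log2 difference 1.08) and Lpl (2794 and 4355, log2 difference 0.74). Salivary gland genes were near absent (1 of 7 measured, on the C array alone), and 3 of 6 skeletal muscle genes were measured with a median of 0.25. The part of these cell types in the B cell gene values was not tested.

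**Figure D5:**
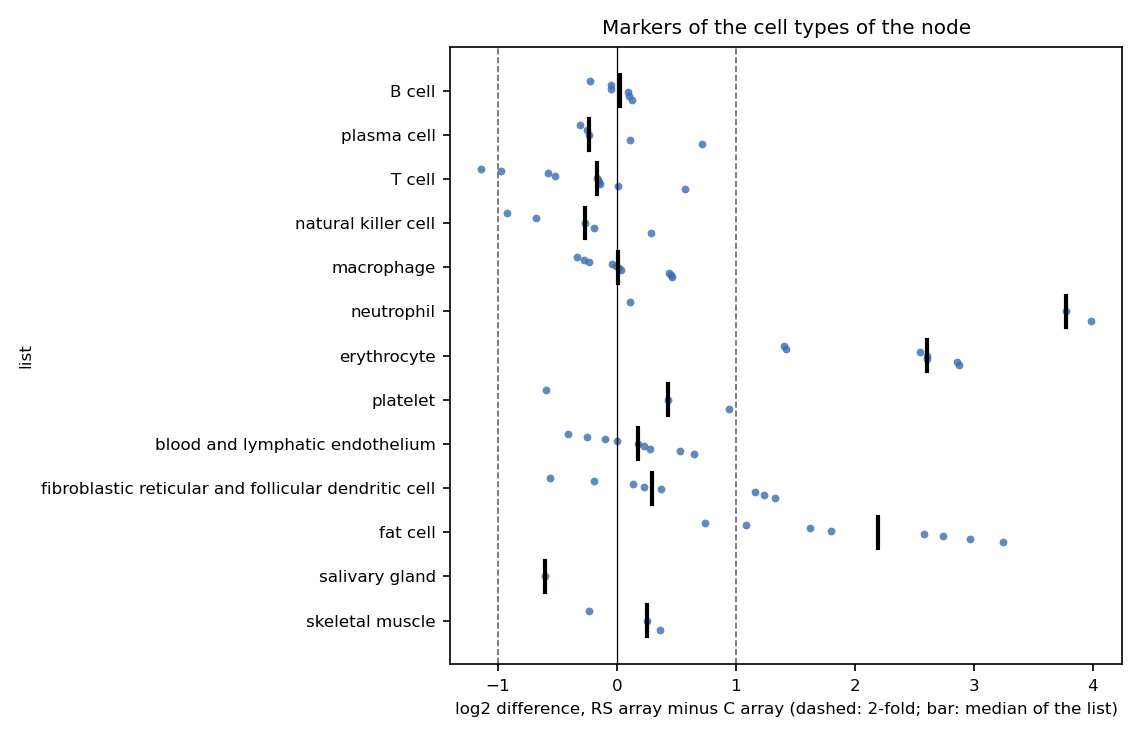
Log2 difference between the arrays (RS minus C) of the markers of 13 cell types, 1 point per gene, with a bar at the median of each list and dashed lines at 2-fold. The B cell bar lies at 0.02 and the plasma cell bar at -0.24, against 2.60 for erythrocytes, 3.78 for neutrophils and 2.19 for fat cells. Of the 5 plasma cell genes 2 lie above 0.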

How the data were processed

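Total RNA was labeled with Cy3 and read in 1 color, and the authors deposited the scanner output of Agilent Feature Extraction 11.5.1.1 as intensity values with background subtracted within each array. The authors also deposited a table of log2 values, with medians of -3.52 (C) and -3.55 (RS); its scale is not stated, and it matched the scaled log2 intensities computed here within 0.1 for 100% of 45598 probes. The file headers place both arrays on 1 slide and in 1 scan. The scan time in the headers is earlier than the period of experiments given in the study's methods, and the scanner named there is another model.

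From the 58717 noncontrol spots of an array, outlier spots (489 on C, 660 on RS) were left out unless every spot of the probe was marked. Log2 intensities were then averaged per probe, and each array was shifted by its 75th percentile over probes, after the study's methods. A probe was well above background when the software marked over 50% of its spots so, which held for 54.7% (C) and 54.9% (RS) of probes, and 0 were saturated. A gene was its probe with the highest mean signal. Where 1 array alone was above background, a fold is a bound, set against the dim signal itself or the faintest above-background probe of that array, whichever was higher. The error combines the software's spot errors. The number of arrays, 1 per group, limits the precision, and no p-value was computed.

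Named were all genes of the set, the pathway genes past 2-fold or farthest from 0 in each direction on their list, and the 2 brightest genes of a marker list whose genes are reported. Cd79a, Tnfsf13b, Tnfsf13, Ctss, Bcl11b, Csf3r, Pf4, Gp1bb, Gp9, Pdpn, Col1a1, Col3a1 and the genes named as not above background were named after their values were seen. The set, the lists and the settings were chosen with earlier results of these data known. Names are those of the array design, and some are old. Icosl, Msh6 and P2ry8 were not analysed here, and 2 other listed genes are not reported here and were left out of their lists. The 12 alternatives were 4 other scalings, a percentile over spots, limma's normexp (offset 50), the deposited table, a mean over each gene's probes, outliers kept, ratios in place of bounds, and 2 other filters. The steps were tested on simulated data. Python 3.11.15 with numpy 2.4.6, pandas 2.3.3 and matplotlib 3.10.9, and R 4.3.3 with limma 3.58.1, were used.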

Additional observations from a re-analysis of the deposited data

How the results depend on the processing

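In all 12 alternatives 0 of the 32 genes passed 2-fold, and their log2 differences stayed between -0.71 and 0.74. Of the 384 values 7 moved by more than the spot error, and 28 genes kept their sign throughout. The other 4 were Bank1 (0.03 as the mean over probes) and Lyn, Btk and Tnfrsf13c, all near 0. The other filters and the ratios in place of bounds could not move any of these values. All 32 genes were above background on both arrays, so those settings repeat the main values. The deposited table (-0.62 to 0.71) and keeping outliers (-0.62 to 0.72) nearly repeat them as well, and so add little to the check. Setting arrays to another constant moves all genes alike, and the median of all genes, 0.02 in the main setting, was itself -0.08 without normalization and 0.04 when arrays were set to the median. The median over the 32 genes ranged from -0.08 without normalization to 0.05 as the mean over probes. Past 1.5-fold 1 gene, Fcer2, was left under normexp, where Prdm1 was at 0.58 and Vpreb3 at 0.57. Other genes passed 1.5-fold under some alternatives, namely Ikzf3 (as low as -0.63) and Cd38 (as high as 0.60). Of the pathway genes 3 were 2-fold higher (Cd83 fell short) and 4 lower (Cd5 and Igll1 were added) without normalization, 1 was lower under normexp, 1 was lower among genes above background on both arrays, and 4 were lower with the percentile over spots. Over all genes, 730 higher and 903 lower became 234 and 378 under normexp, and 1741 and 1905 with no filter, while 601 were lower among genes above background on both arrays. Changes without normalization and with the percentile over spots follow from a shift of all genes by a constant. The filters test other genes by construction. The cause of the other changes was not tested. No paired analysis was possible because C and RS hold 1 array apiece, and no replicate could be left out.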
